A study of Mus musculus with 2 samples.

Results

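The genes described here are Pax1, Pax9, Zic1, Zic2, Zic4 and Zic5, 6 of the 14860 genes measured in mouse limb buds that had been split into anterior and posterior tissue. They were chosen by gene symbol, as the genes of the Pax1/Pax9 pair and the Zic genes that had a probe set annotated to exactly 1 symbol. Each of the 6 had 1 such probe set, and the choice was made with earlier results of these data known. Wild-type CD1 embryos (an outbred stock) were taken at embryonic day 10.5, and the labels name 8 litters as their source. The limb buds were cut along the midline, and RNA of the anterior pieces (the thumb side) and of the posterior pieces (the little-finger side) was hybridised to 1 Affymetrix array each. Both pools were whole bud tissue with ectoderm, vessels and blood cells, and the limb type (forelimb, hindlimb or a mix) is not stated. With 1 array per group there was no replicate, no test and no p-value, and precision is limited by the number of arrays. In such bulk tissue, fewer cells of a type and less RNA per cell cannot be told apart.

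Pax genes encode transcription factors that bind DNA through a paired domain. Pax1 and Pax9 are close relatives without a homeodomain, known from the sclerotome (the part of the somite that forms vertebrae), from the pharyngeal pouches and from limb mesenchyme, where Pax9 marks the anterior side and Pax1 lies near the future shoulder girdle. Zic genes encode zinc-finger transcription factors related to the Gli factors, which carry out Hedgehog signalling, and they are known above all from the dorsal neural tube and the somites. In the mouse genome Zic1 lies next to Zic4 on chromosome 9, and Zic2 next to Zic5 on chromosome 14, while Pax1 and Pax9 lie on chromosomes 2 and 12.

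The promoters of Pax1 and Pax9 are shown because these related genes had the largest measured anterior differences of the 6. Each sequence runs from 250 bases before to 50 bases after the start of the gene in RefSeq (build GRCm38.p6, plus strand), and capitals mark CCAAT, searched on both strands together with TATAAA and with the Gli site GACCACCCA.
Pax1, chr2:147364744-147365043: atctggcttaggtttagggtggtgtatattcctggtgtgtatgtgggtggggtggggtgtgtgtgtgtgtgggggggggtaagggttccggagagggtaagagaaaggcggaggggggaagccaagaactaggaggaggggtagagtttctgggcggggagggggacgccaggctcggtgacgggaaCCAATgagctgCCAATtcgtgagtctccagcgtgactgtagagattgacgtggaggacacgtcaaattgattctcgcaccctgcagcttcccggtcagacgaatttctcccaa
Pax9, chr12:56695221-56695520: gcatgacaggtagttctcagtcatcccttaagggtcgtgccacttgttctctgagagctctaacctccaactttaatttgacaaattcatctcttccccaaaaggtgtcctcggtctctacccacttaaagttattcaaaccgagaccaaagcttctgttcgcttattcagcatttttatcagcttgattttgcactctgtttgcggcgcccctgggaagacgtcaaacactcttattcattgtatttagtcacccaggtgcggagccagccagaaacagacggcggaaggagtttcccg
The Pax1 window held CCAAT at 2 places, a motif found in 37.4% of all 32851 promoter windows of this length, and the Pax9 window held none. RefSeq sequences were at hand for 5 of the 6 genes, and Zic2 had no entry. None of the 5 windows held the Gli site, which occurred in 0.253% of all windows, and none held TATAAA, which occurred in 13.6%. Outside Pax1, CCAAT occurred at 2 places in the Zic1 window and not in those of Zic4 and Zic5. The GC content was 57.3% for Pax1 and 47.0% for Pax9, and it was 65.3%, 46.0% and 62.7% for Zic1, Zic4 and Zic5, with a median of 52.7% over all windows. The windows of Pax1 and Pax9 thus had unlike base composition, as had those of Zic1 and Zic4, while Zic2 and Zic5 could not be compared. The motif matches describe only the letters in each window.

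Expression is given as deposited, in RMA values on the log2 scale. Detected means that at least 1 array read above 5.06, the 95th percentile of 852 olfactory, vomeronasal and bitter taste receptor and beta-defensin genes, which are not known from limb buds and served as background genes. Differences are given as anterior minus posterior log2 values or as folds, and the size used for a call was 1.3-fold (0.38 on the log2 scale), the selection the submitters name. Levels of different probe sets were compared only with the floor and background genes, for neighbours in level and as sums over lists. Beside a difference stands its local spread, a robust standard deviation of the differences of the 500 genes nearest in mean level, which mixes array noise with true differences and is no replicate error.

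Pax1 read 5.76 on the anterior and 5.36 on the posterior array, above the floor on both arrays. It was 1.32-fold higher in anterior tissue, a log2 difference of 0.40 with a local spread of 0.20. Pax1 was the only one of the 6 genes past 1.3-fold. Over all 14860 genes 713 (4.8%) passed toward anterior tissue, and over the 9017 detected genes 422 (4.68%) did. In the order of differences toward anterior tissue Pax1 stood at place 365 among the detected genes. Of the 500 genes nearest to it in level, 23 passed 1.3-fold toward anterior and 8 toward posterior tissue.

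Pax9 had a level of 5.24 in anterior and 4.87 in posterior tissue, so that only its anterior value lay above the floor. Its measured log2 difference was 0.37 with a local spread of 0.19, or 1.30-fold when rounded, and it lay just below the threshold. Against the floor the anterior excess of Pax9 was at least 1.13-fold, a log2 gap of 0.18 that was smaller than its local spread. This bound and those given below for other genes make no allowance for array error. Since the posterior value of Pax9 is only known to lie under the floor, the size of its difference was not set against that of Pax1.

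**Figure D1:**
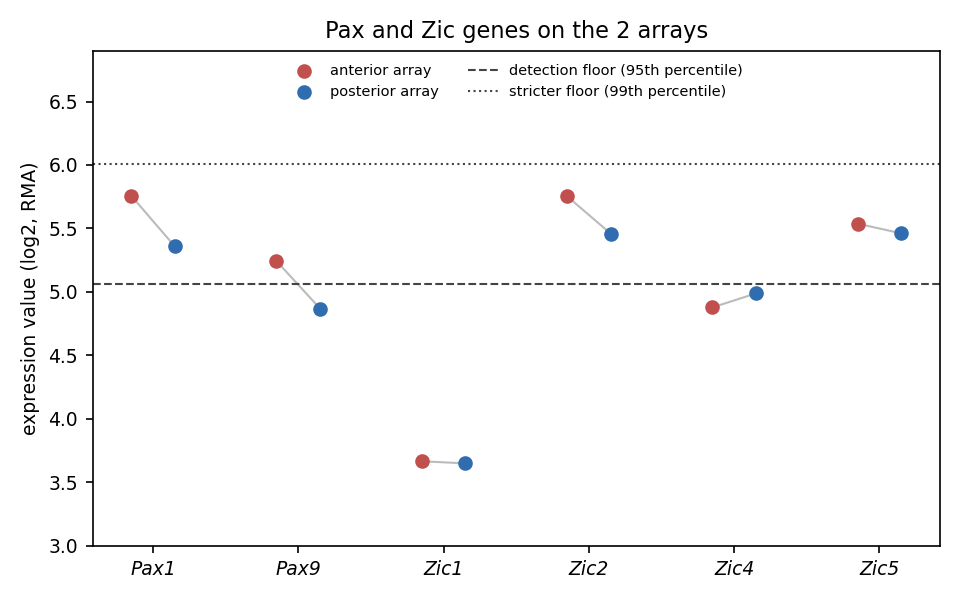
Expression value (log2, RMA) of each Pax and Zic gene on the anterior array (red) and on the posterior array (blue), with 1 array per tissue and no error bars; the dashed line is the detection floor of 5.06 and the dotted line a stricter floor of 6.01. Pax1, Zic2 and Zic5 lie above the dashed line on both arrays, Pax9 only on the anterior array, Zic1 and Zic4 on neither, and no gene reaches the dotted line.

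Of the 4 Zic genes, Zic2 and Zic5 were detected and none passed 1.3-fold. Zic2, a gene of early forebrain and neural tube development, had a level of 5.75 in anterior and 5.46 in posterior tissue, above the floor on both arrays. It was 1.23-fold higher in anterior tissue, a log2 difference of 0.29 with a local spread of 0.19, and did not pass 1.3-fold. Zic5, its neighbour on the chromosome and known from neural crest, had levels of 5.54 and 5.46, also above the floor on both arrays. Its difference of 0.08 toward anterior tissue was less than its local spread of 0.19. The differences of these neighbours were 0.22 apart. The local spread describes the difference of a single gene and is too narrow a measure for such a gap, so the neighbours cannot be told apart.

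Zic1 and Zic4, known from the cerebellum and the dorsal neural tube, were not detected. Zic1 read 3.66 on the anterior and 3.65 on the posterior array, far below the floor, with a difference of 0.02 toward anterior tissue. Zic4 had levels of 4.88 and 4.99, just below the floor, and its difference of 0.11 was the only one of the 6 toward posterior tissue. No fold is given for either, since both values lay below the floor. At levels like these a difference in expression was not detectable on these arrays, and the values do not show that the genes were silent.

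The name under which the 6 genes were grouped places them in anterior mesenchyme, and the values bear this out only in part. In all, 5 of the 6 measured differences were toward anterior tissue, but those of Zic1 and Zic5 were smaller than their local spread, and 1 gene passed 1.3-fold. Toward posterior tissue none of the 6 passed 1.3-fold, against 560 of all genes (3.77%) and 167 of the detected genes (1.85%). The median over the 6 was 0.19 toward anterior tissue, beside 0.04 over all genes and 0.22 over the listed limb mesenchyme genes. The 6 were chosen with earlier results of these data known, so this lean describes them and is no independent evidence. Over all genes 8477 of 14860 measured differences were toward anterior tissue. The cells that carried the RNA were not sorted, and the values cannot place it in mesenchyme.

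**Figure D2:**
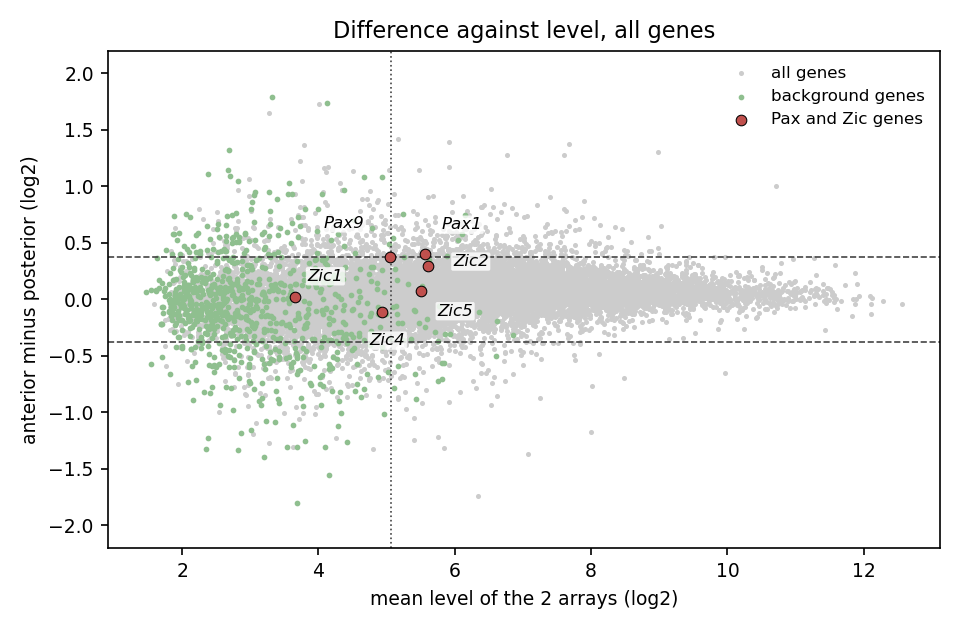
Anterior minus posterior log2 difference against the mean level of the arrays for all 14860 genes (grey), the 852 background genes (green) and the Pax and Zic genes (red); dashed lines mark 1.3-fold in each direction and the dotted line the floor of 5.06. The Pax and Zic genes lie at low levels inside the cloud of other genes, with Pax1 just above the upper dashed line, Pax9 just below it and the point of Zic1 far left of the floor.

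The 6 genes were weak on these arrays. Of the 852 background genes, 10 had an anterior value at or above that of Pax1 and 31 a posterior value at or above its posterior value. For Pax9 these numbers were 32 and 60, for Zic2 they were 10 and 28, and for Zic5 they were 17 and 28. Zic1, by contrast, was reached by 214 and 241 of them, and Zic4 by 51 and 50. With the floor at the 99th percentile of the background genes (6.01), none of the 6 was detected. Among the 23 background genes with a mean level within the range of the 4 detected genes, 2 passed 1.3-fold toward anterior and 4 toward posterior tissue. Differences past 1.3-fold therefore occurred in both directions among genes with no known expression in limb buds.

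The call on Pax1 depended on how the arrays were scaled. With each array centred on its median Pax1 differed by 1.299-fold, and after correction for the trend of the difference with level by 1.292-fold, both just under the threshold. Pax9 differed by 1.276-fold and 1.298-fold in the same settings. After the correction for level none of the 6 passed in either direction, while 613 of all genes (4.13%) passed toward anterior and 573 (3.86%) toward posterior tissue. An offset of 32 on the linear scale, which damps differences of weak probe sets, left Pax1 at 1.18-fold and Pax9 at 1.14-fold. Pax1, Pax9, Zic2 and Zic5 lay toward anterior tissue in each of these settings, and Zic4 toward posterior tissue, whereas Zic1 crossed 0 when the arrays were centred. The offset cannot change the side of a single probe set, and centring shifted every difference by the same 0.02. These settings were therefore hardly a check of the side on which a gene lay.

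**Figure D3:**
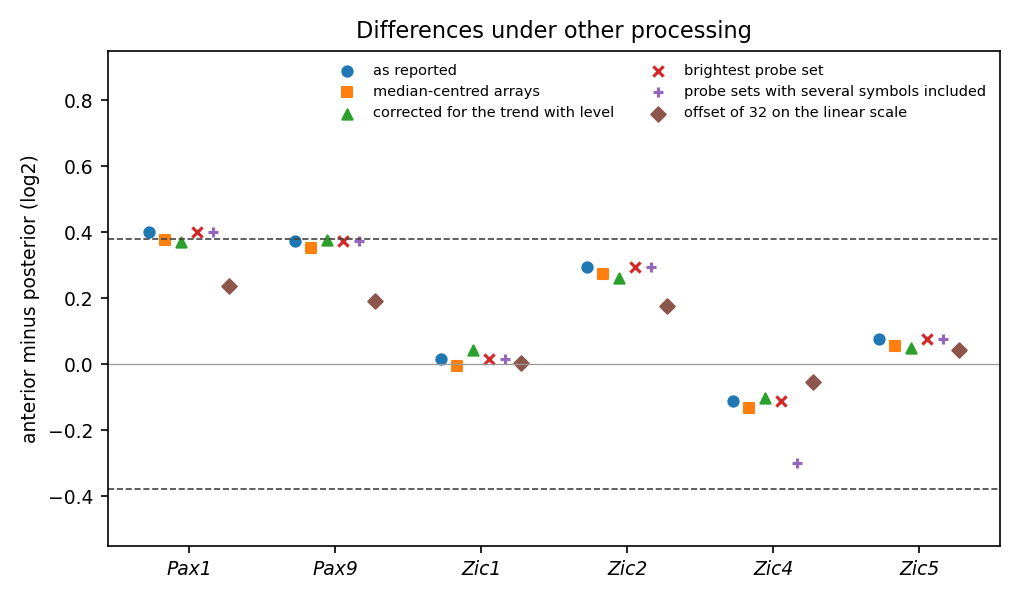
Anterior minus posterior log2 difference of each Pax and Zic gene as reported and in 5 other settings (symbols), with dashed lines at 1.3-fold. Pax1 and Pax9 lie at the upper dashed line in most settings and at 0.24 and 0.19 with an offset of 32, while Zic1 stays near 0 and Zic4 below 0.

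A second probe set carried the symbol Zic4 together with that of B130024G19Rik, a long noncoding RNA gene. RefSeq places the noncoding gene on chromosome 7 and Zic4 on chromosome 9, so the transcript behind this signal is not settled, and the probe set was left out of the value of Zic4. It read 4.58 in anterior and 5.07 in posterior tissue, a difference of 0.49 toward posterior tissue with the higher value at the floor. Averaged with it, Zic4 differed by 0.30 toward posterior tissue, still under 1.3-fold.

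The other Pax genes were compared as the nearest relatives. All 7 were measured, 3 were detected, and the median of the 7 was 0.06 toward posterior tissue. None passed toward anterior tissue, and Pax4, a gene of pancreatic islet development, passed toward posterior tissue with levels of 5.02 and 5.50, which is at least 1.35-fold against the floor. Pax3, which marks the muscle precursors that migrate into the limb, had levels of 6.58 and 6.64 and differed by 0.06. Pax2, a kidney and ear gene, reached the floor only in posterior tissue with 5.01 and 5.10. Pax5, Pax6, Pax7 and Pax8, known from B cells, the eye, muscle stem cells and the thyroid, were not detected. Among the detected Pax genes an anterior difference near 1.3-fold was thus seen only for Pax1 and Pax9, and that contrast was not tested. For Pax5, Pax6, Pax7 and Pax8, below the floor on both arrays, a difference could have been missed. Pax2 was below the floor on the anterior array, as Pax9 was on the posterior array.

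The Gli and Glis factors, the zinc-finger relatives of the Zic proteins, were detected wherever they were measured. Of 6 listed genes 5 were measured, and Gli2 had no probe set of its own. Gli3, the main repressor of Hedgehog targets in the limb, had levels of 9.11 and 8.56 and was 1.47-fold higher in anterior tissue, with a local spread of 0.10. Gli1, which Hedgehog signalling induces, had levels of 5.91 and 6.64 and was 1.65-fold higher in posterior tissue. Glis3 had levels of 5.30 and 4.91, past 1.3-fold toward anterior tissue by its measured values and at least 1.18-fold against the floor. Glis1 and Glis2 differed by 0.09 and 0.14 toward anterior tissue. Gli3 was thus several times its local spread from 0, whereas Glis3, like Pax9, had a posterior value under the floor.

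The 6 genes were also set beside genes known from each side of the bud. Of 13 measured genes of the anterior limb and shoulder girdle, 6 passed 1.3-fold toward anterior tissue, none toward posterior tissue, and the median difference was 0.32. The largest were those of Lhx9 and Asb4, both at levels well above the floor, at 2.47-fold and 2.01-fold, and of the homeobox gene Prrx2 at 1.74-fold. Of 11 measured posterior genes 9 passed toward posterior tissue and none toward anterior tissue, led by Osr1 at 3.34-fold, Hoxd13 at 2.58-fold and Prdm1 at 2.32-fold. These lists hold genes picked for this axis with earlier results of these arrays known. Their direction therefore cannot check the labels and is not independent evidence. Pax1 and Pax9 were on the anterior side of the same axis. The difference of Pax1 was smaller than those of Lhx9, Asb4 and Prrx2. By its measured values that of Pax9 was smaller too, but its posterior value lay under the floor.

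**Figure D4:**
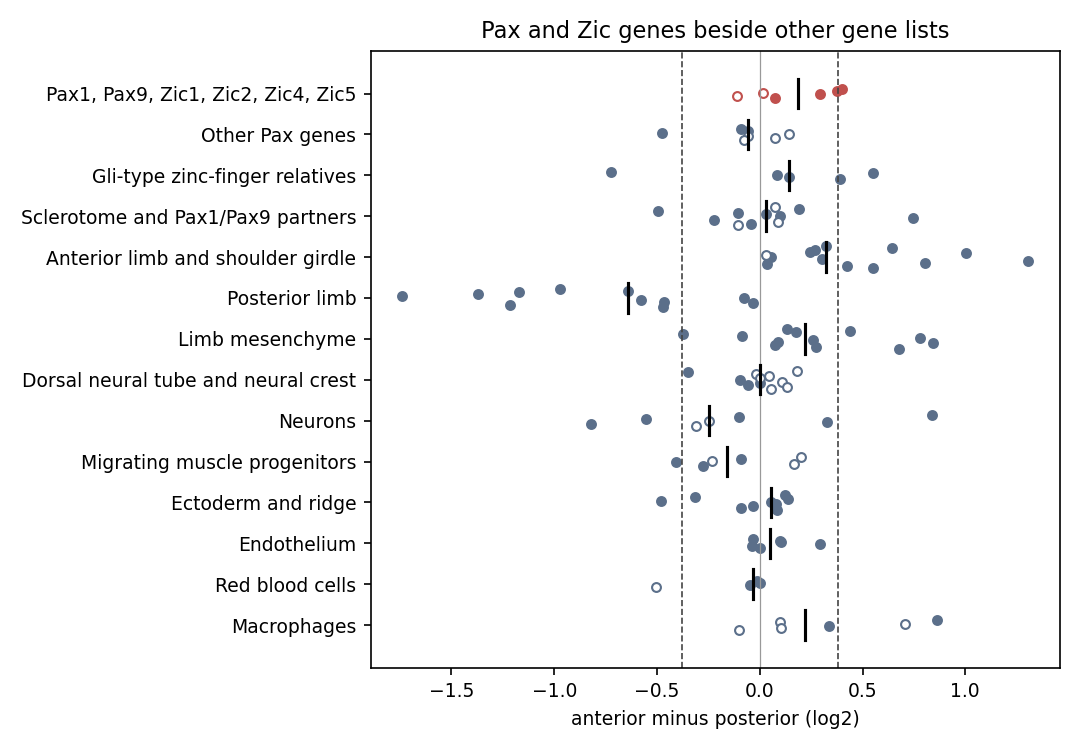
Anterior minus posterior log2 difference of each measured gene by list (filled, detected; open, not detected), with the median of each list as a black bar and dashed lines at 1.3-fold; Gli2 of the third list was not measured. The Pax and Zic genes (red, median 0.19) lie between the anterior limb genes (median 0.32) and the other Pax genes (median 0.06 toward posterior tissue). Their median is near those of limb mesenchyme genes (0.22), macrophage genes (0.22) and the Gli relatives (0.14).

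The genes listed for the sclerotome and as partners of Pax1 and Pax9, not all of them sclerotome genes, did not move as a group. Of 11 measured genes 8 were detected, 1 passed 1.3-fold in each direction, and the median was 0.03 toward anterior tissue. Foxc2, a forkhead factor of paraxial mesoderm, had levels of 5.54 and 4.79, an anterior excess of at least 1.39-fold. Meox2, a homeobox gene of somites and limb muscle, had levels of 7.50 and 7.99 and was 1.41-fold higher in posterior tissue. Scx, a gene of tendon progenitors, differed by 0.22 toward posterior tissue. Nkx3-2, a target of Pax1 and Pax9 in the sclerotome that is named here after its values were seen, had levels of 4.77 and 4.69 and was not detected. The summed level of the list (log2 of the summed linear values) was 9.34 on the anterior and 9.46 on the posterior array, and its part in the values of Pax1 and Pax9 was not tested.

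Markers of other cells in the pools were read beside the Zic and Pax genes. Of 11 measured genes of the dorsal neural tube and neural crest, where Zic genes are known to be active, 4 were detected and none passed 1.3-fold. Their summed level was 8.55 on the anterior and 8.59 on the posterior array, and 7 genes (Wnt1, Lmx1a, Olig3, Msx3, Sox2, Foxd3 and Erbb3) were below the floor on both arrays. The 4 detected were Wnt3a with levels of 5.14 and 5.49, Sox1 with 5.97 and 6.06, Sox3 with 6.03 on both arrays and the neural crest gene Sox10 with 5.92 and 5.98. Of 7 measured genes listed for neurons 5 were detected. Over the 7, 5 differences were toward posterior and 2 toward anterior tissue, with a median of 0.25 toward posterior tissue. Over the 5 detected genes the median was 0.10 toward posterior tissue. Dcx was 1.79-fold higher in anterior tissue, whereas Isl1 was higher in posterior tissue at 1.77-fold and Nefm at 1.47-fold. The summed levels of 8.61 and 8.50 went the other way from both medians. Whether neurons carried the signal of each listed gene was not tested. Of 6 muscle progenitor genes 3 were detected and Myod1 alone passed, toward posterior tissue and with a bound of 1.03-fold, with summed levels of 8.21 and 8.37.

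The remaining cell types differed little, apart from macrophage genes. Of 9 ectoderm and ridge genes Krt5 alone passed, at 1.40-fold toward posterior tissue (summed levels 9.66 and 9.72). None of 6 endothelial genes passed (9.70 and 9.68), with Tek furthest at 0.30 toward anterior tissue. Of 4 red blood cell genes 3 were detected and none of these passed (12.69 and 12.70). Of 6 macrophage genes 2 were detected, namely Tyrobp at 1.82-fold and Cx3cr1 at 0.34 on the log2 scale, both toward anterior tissue (7.94 and 7.50). Whether any of these cells had a part in the Pax and Zic values was not tested. All 12 genes listed for limb mesenchyme, also chosen with earlier results of these arrays known, were detected. Of these, 4 (Msx1, Lhx2, Tfap2a and Twist1) passed 1.3-fold toward anterior tissue, and Tbx4 lay furthest the other way at 0.38, just under the threshold.

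Genes beside the Pax and Zic genes on their chromosomes showed no difference past 1.3-fold where they were measured. The protein-coding neighbours of Pax1, Nkx2-2 and Foxa2, were not detected on either array, nor was Slc25a21 next to Pax9. Clybl, the protein-coding gene on the far side of Zic5, was detected with levels of 7.10 and 6.77 and lay 0.33 toward anterior tissue. Pcca, on the far side of Zic2, had levels of 7.71 and 7.53 and lay 0.18 the same way. Both encode metabolic enzymes of mitochondria, and the difference of Clybl was larger than that of Zic2 at 0.29.

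Among the genes of all lists, those with a difference most like that of Pax1 were Glis3 at 0.39, Pax9 at 0.37 and Tcf7l2 at 0.42 toward anterior tissue. For Pax9, by its measured values, they were Glis3, Pax1 and Cx3cr1. For Zic2 they were the endothelial gene Tek at 0.30, the homeobox gene Gsc at 0.30 and Hoxd9 at 0.27. For Zic5 they were Hoxa9, Pax7 and Trp63, at 0.08, 0.07 and 0.08. Likeness was the gap between log2 differences over only 2 arrays, so many genes lie equally near.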

How the data were processed

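RNA was amplified and fragmented with Nugen reagents and biotinylated, per the labels' protocols. The values are RMA log2 expression values per transcript cluster (called a probe set here), made by the authors in Affymetrix Expression Console (core probe sets, summarised per gene), per the labels; version not given in the sources used here; the submitters' processing notes name build mm9. RMA usually makes the distributions of the arrays equal and can compress ratios of weak probe sets. Both columns matched a sample by name.

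Of 23332 probe sets, 14996 had exactly 1 symbol in the platform annotation, 1019 several and 7317 none; the 14996 were averaged per symbol into 14860 genes. Gene identifiers of 14941 probe sets matched a RefSeq table of GRCm38.p6, used for names and chromosomes. Detection, the local spread (1.4826 times the median absolute deviation), the lowess correction (fraction 0.3) and the other settings were computed in Python 3.11.15 with statsmodels 0.14.6, after tests on simulated data. No test between the groups was possible.

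The 6 members and 13 other lists (126 genes with the members, 114 of them measured) were chosen with earlier results of these data known. All members, other Pax genes and Gli relatives are named, and of every other list up to 3 detected genes with the largest difference and the detected gene furthest the other way; genes named outside this rule were chosen after their values were seen. A withheld gene of 1 list is not reported here.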

Additional observations from a re-analysis of the deposited data

Results flagged for a closer look

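The probe set that carries both Zic4 and B130024G19Rik was not part of the gene values, and its posterior level of 5.07 lay above the floor of 5.06, whereas its anterior level of 4.58 lay below it. When probe sets with several symbols were also counted, the floor itself was 5.09, above both values.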

How the results depend on the processing

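All 8 alternatives were run; where an alternative set the filter or the threshold, it gave no new difference for a single gene, and none of Pax1, Pax9, Zic1, Zic2, Zic4 and Zic5 was detected with the floor at the 99th percentile, so that setting gave no count for these 6. With no replicates, the local spread stood in for an error when a value was said to move. The differences of Pax1, Pax9, Zic1, Zic2 and Zic5 moved by less than their local spread in every setting run for them, and Zic4 moved to 0.30 toward posterior tissue (posterior minus anterior 0.30) with probe sets of several symbols. Some of these settings could not move a value. Each of the 6 genes had 1 probe set, so taking the brightest probe set returned the same value. Counting probe sets of several symbols could change only Zic4, and centring shifted all genes by the same 0.02. The count of these 6 genes past the threshold toward anterior tissue went from 1 to 0 with median-centred arrays, after the correction for level, with the offset of 32 and at 1.5-fold. Over all genes, 713 anterior and 560 posterior calls became 156 and 60 with the offset, 422 and 167 among detected genes, 293 and 75 with the stricter floor, and 226 and 199 at 1.5-fold. With median-centred arrays they were 626 and 651, so that posterior calls outnumbered anterior ones. For the other lists, the anterior count of the Gli relatives went from 2 to 1 with centred arrays, the offset or the stricter floor and to 0 at 1.5-fold. That of macrophage genes went from 2 to 1 with the offset and both filters, and that of sclerotome genes from 1 to 0 with the stricter floor. Posterior counts went from 1 to 0 for the other Pax genes and muscle progenitors (offset, stricter floor, 1.5-fold), for red blood cells (the same and detected genes only), and for sclerotome and ectoderm genes at 1.5-fold; from 2 to 1 for neurons (offset, 1.5-fold); from 0 to 1 for limb mesenchyme (centring, level); and from 1 to 2 for ectoderm (level). Posterior minus anterior medians moved with the stricter floor to 0.22 (sclerotome), -0.49 (anterior limb) and 0.56 (neurons), to 0.46 for posterior genes with the offset, and to -0.60 for macrophages with either filter. The changes with filters and thresholds follow from fewer genes entering or passing; for the rest the cause was not tested. No paired analysis was possible because each group holds 1 array.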
